A study of Mus musculus with 56 samples.

Results

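The genes described here encode the core of the perineuronal net and the enzymes that make its hyaluronan backbone: the lecticans Acan, Bcan, Ncan and Vcan, the link proteins Hapln1, Hapln2 and Hapln4, the crosslinker Tnr, and the hyaluronan synthases Has2 and Has3. They were taken by name, and all 10 were found among the 18088 genes of the deposited table. RNA sequencing had been applied to the prefrontal cortex of 56 C57BL/6J mice on postnatal day 25, after 3 weeks of exposure through maternal milk from day 3 to day 24. The mice were heterozygous for Scn2a (HT), which encodes a neuronal voltage-gated sodium channel, or wild type (WT). There were 18 fluoxetine, 19 lithium and 19 vehicle libraries, 29 of them HT and 27 WT, 29 from males and 27 from females. Of the 12 groups of genotype, treatment and sex, 8 held 5 libraries, and 4 libraries each came from the fluoxetine-exposed females of either genotype, the lithium-exposed WT females and the WT males given vehicle. The labels name no litter or dam, so pups of a group may share a mother, and p-values then measure only the spread between these libraries. Each library is 1 dissected region with all its cell types, so fewer cells of a type and less RNA per cell cannot be told apart.

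Perineuronal nets are lattices of extracellular matrix that wrap the cell body and proximal dendrites of some neurons, most of all the fast-spiking interneurons that express parvalbumin. Hyaluronan synthases in the cell membrane extrude long hyaluronan chains, lecticans bind those chains through their N-terminal domain, link proteins clamp that bond, and trimers of tenascin-R tie the C-terminal ends of the lecticans together. In rodent cortex the nets form during postnatal life, and their completion accompanies the closing of critical periods of plasticity.

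Each lectican gene lies beside a link protein gene with no protein-coding gene between them (coordinates from GENCODE vM21 on GRCm38). Ncan (neurocan; chromosome 8, 70093085 to 70120873, minus strand) lies 2.2 kb from Hapln4 (chromosome 8, 70083457 to 70090862, plus strand). Bcan (brevican; chromosome 3, 87987531 to 88000230, minus strand) lies 21.5 kb from Hapln2 (chromosome 3, 88021750 to 88027583, minus strand). Vcan (versican; chromosome 13, 89655312 to 89742509, minus strand) lies 43.7 kb from Hapln1 (chromosome 13, 89539796 to 89611652, plus strand). Acan (aggrecan; chromosome 7, 79053483 to 79115099, plus strand) has as its neighbour Hapln3, the remaining link protein gene. The other genes stand alone: Tnr on chromosome 1 (159523769 to 159931729, plus strand), Has2 on chromosome 15 (56665627 to 56694539, minus strand) and Has3 on chromosome 8 (106870242 to 106884566, plus strand).

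Promoter sequence from RefSeq (GRCm38.p6) was at hand for 7 of the 10 genes, all but Has2, Has3 and Hapln4. Those of Acan, Vcan and Hapln1 are shown, because Acan and Vcan varied together between mice of a group and Hapln1 is the neighbour of Vcan that did so less. Each line is the 250 bases before the start used by that source, 5′ to 3′ on the gene's strand, at chr7:79052976-79053225, chr13:89742513-89742762 and chr13:89540386-89540635. For Acan and Hapln1 these starts differ from the GENCODE coordinates above. The Hapln1 window lies inside the gene as GENCODE places it (from 89539796), and the Acan window ends some way before the GENCODE start (79053483).
Acan: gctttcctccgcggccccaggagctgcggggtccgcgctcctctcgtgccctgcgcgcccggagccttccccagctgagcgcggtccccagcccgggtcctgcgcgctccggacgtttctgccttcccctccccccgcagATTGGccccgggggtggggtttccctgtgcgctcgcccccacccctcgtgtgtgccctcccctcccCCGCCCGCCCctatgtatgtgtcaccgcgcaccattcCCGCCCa
Vcan: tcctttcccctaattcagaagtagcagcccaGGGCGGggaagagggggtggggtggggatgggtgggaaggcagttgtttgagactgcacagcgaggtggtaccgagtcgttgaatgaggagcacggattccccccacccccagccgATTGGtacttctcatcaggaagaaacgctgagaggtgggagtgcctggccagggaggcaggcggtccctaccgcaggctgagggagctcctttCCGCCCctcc
Hapln1: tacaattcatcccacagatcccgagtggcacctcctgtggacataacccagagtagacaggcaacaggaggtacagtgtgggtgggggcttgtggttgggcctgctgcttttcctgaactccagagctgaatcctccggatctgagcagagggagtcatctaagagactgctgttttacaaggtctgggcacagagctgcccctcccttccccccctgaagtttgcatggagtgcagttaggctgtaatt
Capitals mark 4 motifs searched on both strands: the TATA box as TATAAA, the CCAAT box as CCAAT, the core of GC boxes as GGGCGG and a core of SOX and TCF motifs as ACAAAG. Acan held 1 CCAAT and 3 GGGCGG, of which 2 overlap, Vcan held 1 and 2, and Hapln1 held none of the 4. Among the promoters not shown, Bcan held 1 CCAAT and 1 GGGCGG, Ncan 1 TATAAA and 1 GGGCGG, Hapln2 1 CCAAT and Tnr 1 ACAAAG. Whether motifs relate to variation between mice was not tested. Of 27025 mouse promoters of this length, 34.5% held a CCAAT, 32.9% a GGGCGG, 13% a TATAAA and 16.5% an ACAAAG. The number of CpG sites was 26 for Acan, 16 for Bcan, 10 for Vcan, 6 for Ncan, and 2 each for Hapln1, Hapln2 and Tnr, against a median of 6 over all these promoters. These are descriptions of letters in a window, not of binding.

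A value is a gene's read number over the size factor of its library, so 1 unit is about 1 read at typical depth. Over all 56 libraries the mean per kilobase of merged exons fell in the order Bcan (1780 ± 112, SD), Ncan (1590 ± 69.4), Tnr (664 ± 48.1), Hapln4 (560 ± 64.7), Hapln1 (195 ± 26.0), Hapln2 (85.3 ± 20.8), Vcan (68.2 ± 7.15), Acan (17.1 ± 5.20), Has3 (12.2 ± 2.02) and Has2 (2.73 ± 0.984). The order was the same per kilobase of the longest transcript. Bcan and Ncan, the 2 lecticans that dominate brain matrix, thus stood highest, and Acan, the lectican most used as a marker of nets, stood far below them per length in this dissection. Some neighbours in this order did not separate: the ranges over libraries overlapped for Bcan and Ncan, for Tnr and Hapln4, for Hapln2 and Vcan and for Acan and Has3. Within single libraries Bcan exceeded Ncan in 55 of 56, Tnr exceeded Hapln4 in 52, Acan exceeded Has3 in 45 and Hapln2 exceeded Vcan in 39.

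The genes differed in how much they varied between mice of 1 group. The median coefficient of variation within the 12 groups was 3.81% for Ncan, 5.29% for Bcan and 5.82% for Tnr, and 24.2% for Hapln2, 23.0% for Acan and 29.9% for Has2. For Has2 that spread was about what counting alone gives (30.5%), since its libraries held only 4 to 21 reads. For Has3 it was also near counting error (10.6% against 11.7%), whereas for Acan counting accounts for 9.13% and for Hapln2 for 7.27%. A change in Has2 therefore rests on a handful of reads per mouse, and its value reached 10 in 32 of 56 libraries.

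**Figure D1:**
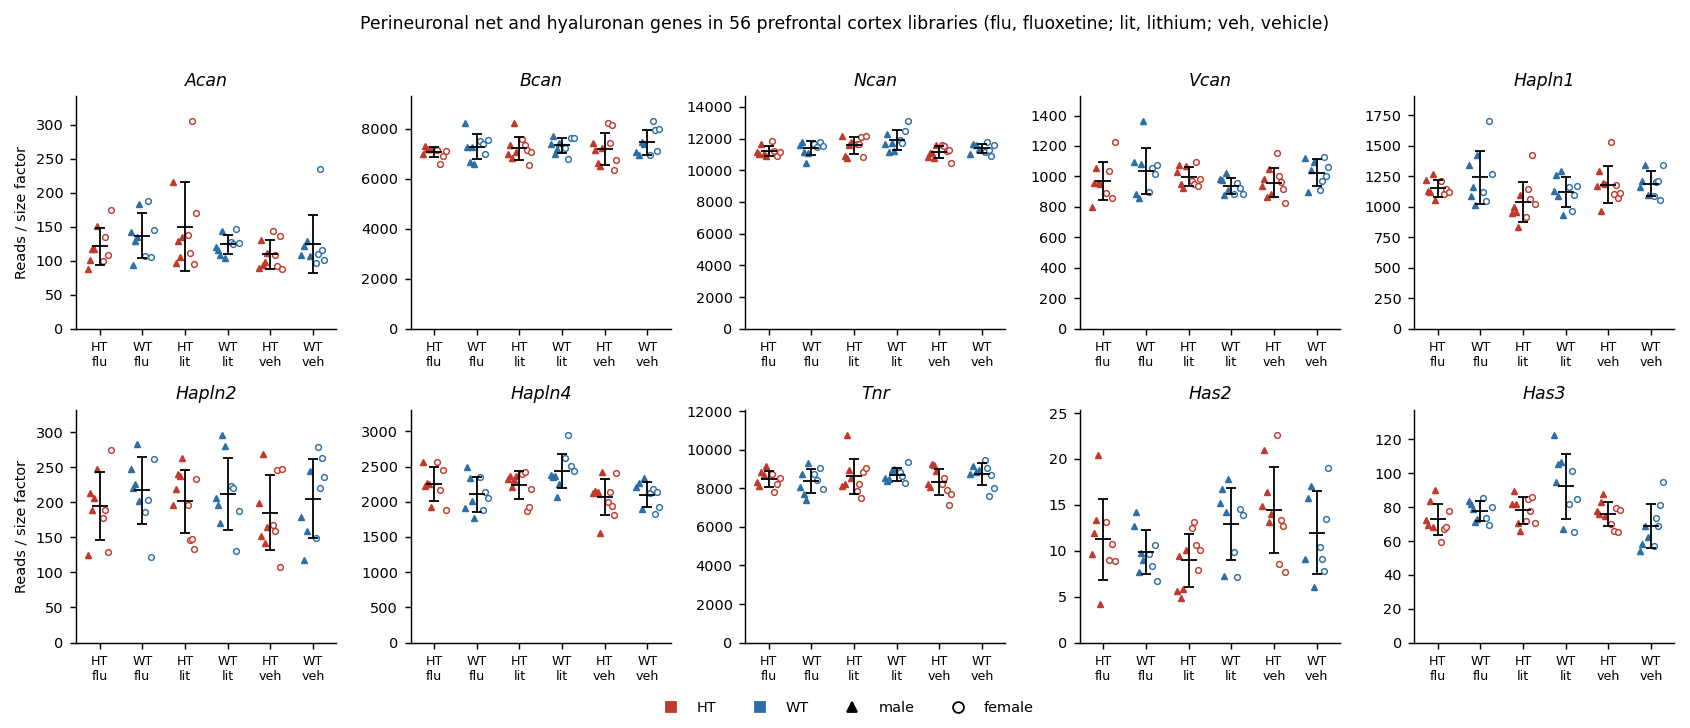
Value of each gene (y axis, reads over size factor, from 0) in every library, by genotype and treatment (x axis); red, HT; blue, WT; triangles, males; circles, females; bars, mean ± SD. Has3 stands highest in the WT lithium group and Has2 lowest in the HT lithium group, while Bcan, Ncan and Tnr lie in narrow bands in every group, and single Acan libraries reach 305.1 in HT lithium and 234.3 in WT vehicle mice.

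Libraries held 24.3 to 36.4 M reads, with a median of 27.9 M. Scn2a was 7583 to 9619 in HT libraries and 9727 to 13381 in WT libraries, so the genotype labels held in all 56. Markers of cortical excitatory neurons, parvalbumin interneurons, astrocytes and oligodendrocytes were detected in every library. Markers of olfactory bulb and of striatum, regions that border the dissected one, were scored as the mean, over the list, of each marker's log2 deviation from its own median over libraries. In 17 libraries at least 1 of these scores exceeded 1 (olfactory in 11, striatal in 7, of which 1 library had both): 5 of 19 vehicle libraries, 6 of 19 lithium libraries and 6 of 18 fluoxetine libraries. They were uneven over the 12 groups. They made up 3 of 5 HT vehicle females, 0 of 4 WT vehicle males and 0 of 4 WT lithium females, and each remaining group held 1 or 2. Results that rest on such libraries are given with and without them. All 10 genes passed the filter on low values (at least 10 in at least 4 libraries), as did 17778 genes in all. Differences below are log2 changes of (value + 1), from limma over all libraries and averaged over the sexes, with adjusted p meaning Benjamini-Hochberg over the 17778 genes, and a gene is said to rise or fall at an adjusted p below 0.05. Overlap of ranges between groups of 4 or 5 libraries is description only, and no share over all genes is given for it. It was looked at for each gene and sex in every drug and genotype comparison, so some ranges may lie apart by chance.

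Lithium in WT mice raised the synthase Has3. In WT lithium males the values were 122.6, 94.9, 105.7, 106.9 and 67.2, against 54.4, 58.0, 69.0 and 62.4 in WT vehicle males. Among males, 4 of the 5 lithium values lay above every vehicle value. In WT lithium females they were 81.8, 101.6, 65.4 and 84.7, against 57.2, 73.9, 69.0, 81.0 and 95 in WT vehicle females, and these ranges overlapped. The log2 change was 0.41 ± 0.091 (SE; 95% interval 0.23 to 0.59), or 33.1% (adjusted p = 0.0058), and 8 of 9 lithium libraries lay above the vehicle mean of their sex. Has3 was the only one of the 10 genes to pass in this comparison (1 of 10 higher, 0 lower), where 3.84% of all genes rose, 1.88% fell and 5.71% passed in either direction. At an unadjusted threshold of 0.05 it was 3 of 10, against 21.4% of all genes. It passed under all 11 other settings and with any 1 of 56 libraries left out, with an adjusted p of at most 0.044, and the change was 0.47 (adjusted p = 0.0079) without the libraries of high olfactory or striatal score.

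The rise of Has3 was larger in males (0.68 ± 0.13, adjusted p = 0.015, where 0.208% of genes passed) than in females (0.15 ± 0.13, adjusted p = 0.57), but the difference between the sexes, 0.53 ± 0.18, did not pass the test (adjusted p = 0.74). The WT vehicle males, with a mean of 61.0 ± 6.26 (n = 4), were the lowest of the 12 groups, and the WT lithium males, with 99.5 ± 20.6 (n = 5), the highest.

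The other genes did not pass in WT mice. Hapln4, the link protein that accompanies brevican at inhibitory synapses, came nearest. In WT lithium females its values were 2616.6, 2946.6, 2510.2 and 2442.4, against 2121.3, 2179.0, 1819.1, 2132.6 and 1928.9 in WT vehicle females, without overlap. In WT lithium males they were 2373.8, 2350.5, 2370.9, 2066.0 and 2251.1, against 2209.3, 2266.9, 1900.6 and 2334.4 in WT vehicle males, where the ranges overlapped and 3 of the 5 lithium values lay above every vehicle value. Averaged over the sexes the change was 0.22 ± 0.071 (adjusted p = 0.054), with 8 of 9 lithium libraries above the vehicle mean of their sex. In females alone it was 0.37 ± 0.10 (adjusted p = 0.053, where 0.799% of all genes passed), in males 0.07 ± 0.10 (adjusted p = 0.84), and the male minus female difference of -0.30 did not pass (adjusted p = 0.74). The call turned on the fit: the adjusted p was 0.043 with DESeq2, 0.014 with only the groups compared in the fit, and 0.067 with edgeR. Hapln4 was not called with the olfactory and striatal scores as covariates, nor without the libraries of high score. Olfactory scores were -0.84 to -0.61 in WT lithium females and -0.99 to 2.18 in WT vehicle females.

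Among the lecticans in WT mice, Ncan averaged 11900 ± 629 in 9 lithium libraries and 11380 ± 301 in 9 vehicle libraries, a change of 0.07 (95% interval 0.01 to 0.12; adjusted p = 0.13). Vcan, the lectican of white matter and of developing tissue, averaged 935.8 ± 51.8 in lithium libraries and 1025 ± 86.5 in vehicle libraries. All 9 lithium libraries lay below the vehicle mean of their sex, but the change of -0.13 did not pass (adjusted p = 0.25). The remaining changes were -0.09 (Hapln1), -0.02 (Bcan), -0.0035 (Tnr), 0.05 (Acan), 0.07 (Hapln2) and 0.12 (Has2), with adjusted p of 0.55 to 0.98. For Bcan the 95% interval was -0.11 to 0.07 and for Tnr -0.10 to 0.09.

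**Figure D2:**
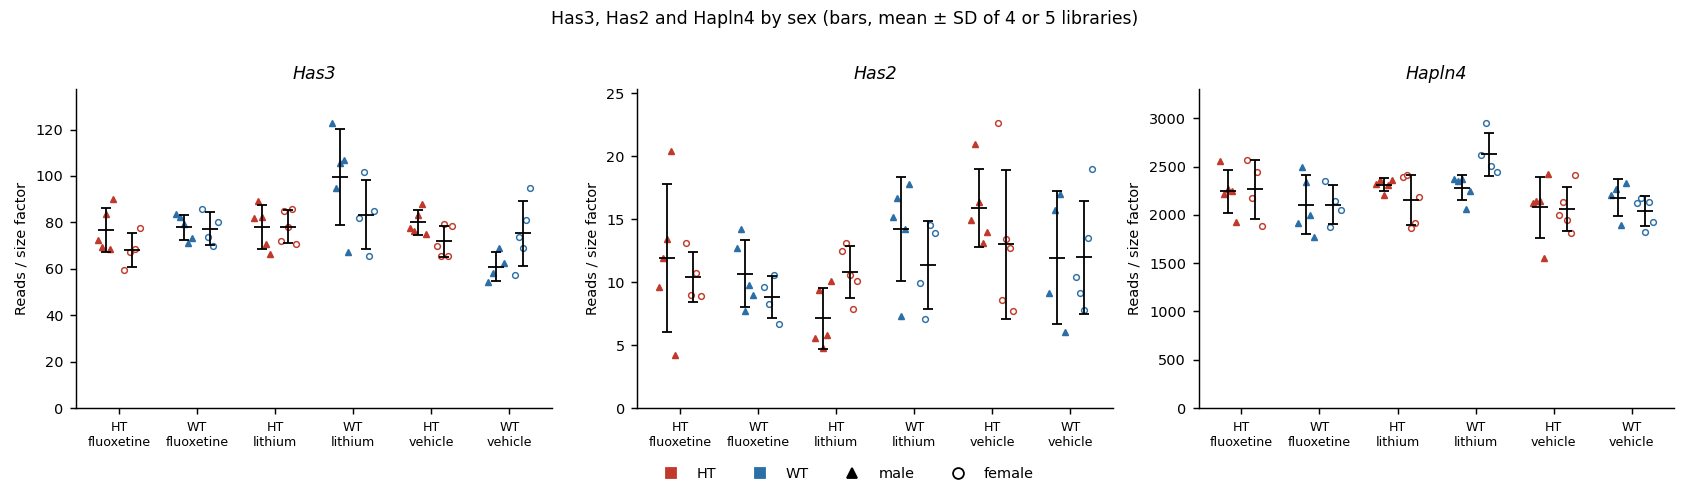
Values of Has3, Has2 and Hapln4 (y axes, reads divided by size factor, from 0) in males (triangles) and females (circles) of each genotype and treatment (x axis), with mean ± SD of 4 or 5 libraries. The lithium groups stand above vehicle for Has3 in WT males and for Hapln4 in WT females, and below vehicle for Has2 in HT males.

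Lithium in HT mice lowered the other synthase, Has2, at the edge of the threshold. In HT lithium males its values were 5.6, 9.4, 4.8, 5.8 and 10.1, against 14.9, 21.0, 16.4, 13.1 and 14 in HT vehicle males, with no overlap. In HT lithium females they were 12.5, 13.1, 10.6, 7.9 and 10.1, against 22.6, 8.6, 13.4, 12.7 and 7.7 in HT vehicle females, with the lithium values inside the vehicle range. The change was -0.62 ± 0.21 (95% interval -1.04 to -0.21), or -35.2% on the scale of value + 1 (adjusted p = 0.048), and 9 of 10 lithium libraries lay below the vehicle mean of their sex. Has2 was the only one of the 10 genes to pass (0 higher, 1 lower), where 4.64% of all genes rose, 4.13% fell and 8.77% passed in either direction. At an unadjusted threshold of 0.05 it was 4 of 10, against 23.3% of all genes. In males the change was -1.08 ± 0.29 (adjusted p = 0.065, where 0.546% of all genes passed and 0.264% fell), in females -0.17 ± 0.29 (adjusted p = 0.84, where 0.99% passed), and the difference between the sexes did not pass (-0.91, adjusted p = 1).

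The call of Has2 was fragile. Without the libraries of high olfactory or striatal score the change was -0.37 (adjusted p = 0.50). It was lost in 28 of 56 fits that left out 1 library, 13 of them when a HT lithium or HT vehicle library was dropped (adjusted p of 0.056 to 0.10) and 15 when a library of another group was dropped (0.05 to 0.051). The 13 were HT lithium females 3, 4 and 5, HT lithium males 1, 3 and 4, HT vehicle females 1, 3 and 4, and HT vehicle males 1, 2, 3 and 5. Has3 in the same mice averaged 78.1 ± 7.85 in 10 HT lithium libraries and 75.9 ± 7.20 in 10 HT vehicle libraries (log2 change 0.04, 95% interval -0.13 to 0.21; adjusted p = 0.83).

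Acan had a positive change in HT lithium mice that did not pass. Its values were 215.3, 96.7, 129.3, 105.3 and 134.7 in HT lithium males and 137.5, 112.1, 305.1, 94.8 and 170.2 in HT lithium females, against 89.1, 130.2, 94.1, 98.7 and 111.0 in HT vehicle males and 144.0, 108.8, 91.7, 137.1 and 88.1 in HT vehicle females. The 3 highest, HT lithium female 3, male 1 and female 5, were the 3 HT lithium libraries with an olfactory score above 1 (2.10, 1.52 and 1.16). The change was 0.38 ± 0.16 (adjusted p = 0.13). With both scores as covariates it was 0.34 ± 0.079 (adjusted p = 0.0035), and without the libraries of high score it was 0.21 ± 0.11 (adjusted p = 0.33). The summed olfactory list was 8055 to 32558 (median 11092) in HT lithium libraries and 8373 to 22042 (median 11772) in HT vehicle libraries. Of its 14 markers, 10 had a positive and 3 a negative change between these groups, with a median of 0.03.

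Hapln1, the link protein most tied to closure of the net in mouse cortex, averaged 1039 ± 164 in HT lithium libraries and 1181 ± 151 in HT vehicle libraries, with 9 of 10 lithium libraries below the vehicle mean of their sex. The change of -0.19 ± 0.077 did not pass (adjusted p = 0.12), and 2 libraries moved it: the adjusted p was 0.045 without HT lithium female 4, the highest of its group at 1425.8, and 0.24 without HT vehicle female 1, at 1533.2. Hapln4 averaged 2235 ± 196 in HT lithium and 2070 ± 260 in HT vehicle libraries (0.12, adjusted p = 0.29), the same sign as in WT mice. Ncan averaged 11560 ± 547 in HT lithium and 11140 ± 380 in HT vehicle libraries (0.05, 95% interval 0.00 to 0.10; adjusted p = 0.20). Vcan, Bcan, Hapln2 and Tnr had changes of 0.01 to 0.14 and adjusted p of 0.56 to 0.92. The median change of the 10 genes was 0.05 in HT mice and 0.06 in WT mice, against -0.00068 and 0.0019 over all genes tested.

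Has3 passed in WT mice and Has2 in HT mice, but the difference between genotypes in the lithium response did not pass for either, nor for any gene of the table by limma (0% of 17778 genes at the adjusted threshold, 10.9% at an unadjusted p below 0.05, and 0 to 4 genes by the other fits run). For Has3 the lithium change in HT minus that in WT mice was -0.37 ± 0.13 (adjusted p = 0.28). For Has2 it was -0.74 ± 0.30 (adjusted p = 0.38), and for Vcan 0.20 ± 0.095 (adjusted p = 0.45). These are the 3 of 10 genes under an unadjusted 0.05, and the other 7 had changes of -0.10 (Hapln1 and Hapln4) to 0.33 (Acan) with adjusted p of 0.60 to 0.94. For the fluoxetine response the count was 1 of 10, Has3 (-0.27 ± 0.13, adjusted p = 0.89; the other 9 had -0.15 for Has2 to 0.13 for Hapln4 with adjusted p of 0.95 to 1), where 5.44% of all genes were under an unadjusted 0.05 and 0% passed.

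**Figure D3:**
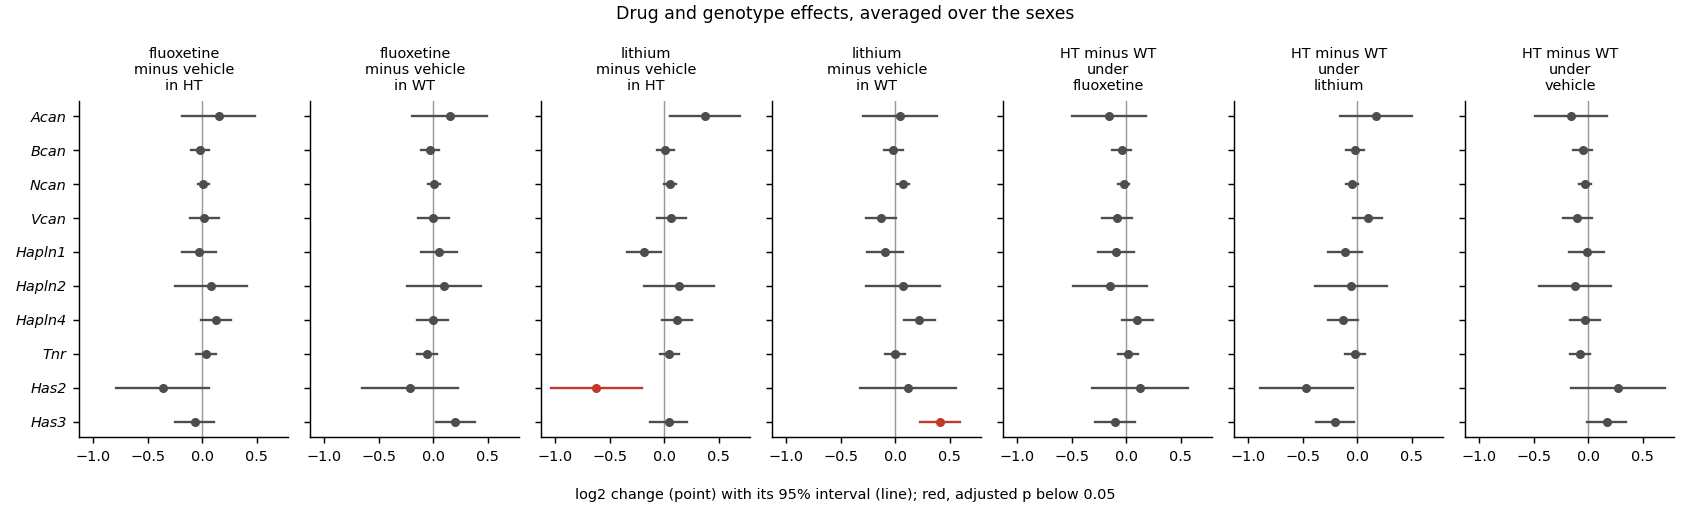
Log2 change of each gene (x axes; point, estimate; line, 95% interval) for the 4 drug effects and the 3 genotype effects averaged over the sexes; red, adjusted p below 0.05 over 17778 genes. Has2 under lithium in HT mice (-0.62) and Has3 under lithium in WT mice (0.41) are red, and the intervals of Bcan, Ncan and Tnr are narrow around 0.

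With fluoxetine, a serotonin reuptake inhibitor, none of the 10 genes passed by limma, nor in any other fit that gave an adjusted p (11, or 10 for Has2), in HT mice (0.045% of all genes passed, and none of the 10 was under an unadjusted 0.05, against 8.56% of all genes) or in WT mice (0.146% of all genes passed, and 1 of the 10 was under an unadjusted 0.05, against 10.9%). The lithium and fluoxetine comparisons share their vehicle libraries. Has3 in WT mice was the gene under an unadjusted 0.05. It averaged 77.6 ± 5.80 in 9 WT fluoxetine libraries and 68.9 ± 13 in 9 WT vehicle libraries (0.20 ± 0.091, adjusted p = 0.38). In males the ranges did not overlap, with 71.0 to 83.7 under fluoxetine and 54.4 to 69.0 under vehicle, the group with the lowest Has3 mean. Has2 averaged 11.2 ± 4.42 in HT fluoxetine and 14.4 ± 4.69 in HT vehicle libraries (-0.37, adjusted p = 0.66), and 9.84 ± 2.38 in WT fluoxetine and 11.95 ± 4.51 in WT vehicle libraries (-0.22, adjusted p = 0.78). The HT value turned to 0.14 without the libraries of high score. Acan had a change of 0.15 in both genotypes (adjusted p = 0.84 in HT and 0.81 in WT mice), and Hapln4 one of 0.13 in HT mice (adjusted p = 0.63). Hapln1, Hapln2 and Vcan had changes of -0.03, 0.08 and 0.02 in HT mice and 0.05, 0.10 and 0.0009 in WT mice, Has3 one of -0.07 in HT mice and Hapln4 one of -0.0044 in WT mice, with adjusted p of 0.86 to 1. For the abundant Bcan, Ncan and Tnr, changes ran from -0.06 (Tnr in WT mice) to 0.03 (Tnr in HT mice) with adjusted p of 0.69 to 0.98, and the 95% intervals lay within -0.15 and 0.12 in both genotypes.

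Loss of a Scn2a copy left the 10 genes below the threshold under vehicle (0.00562% of all genes passed, Scn2a itself), under fluoxetine (0.0112%) and under lithium (0.0337%), and 0, 0 and 2 of the 10 were under an unadjusted 0.05, against 9.93%, 3.94% and 10.3% of all genes. Under vehicle, Has3 averaged 75.9 ± 7.20 in 10 HT libraries and 68.9 ± 13 in 9 WT libraries (0.17 ± 0.088, adjusted p = 0.53). In males its ranges did not overlap, with 75.0 to 88.0 in HT and 54.4 to 69.0 in WT vehicle mice. These WT vehicle males are the same libraries as in the lithium and fluoxetine comparisons. Under lithium the order was the other way, with 78.1 ± 7.85 in HT and 92.3 ± 19.1 in WT libraries (-0.20 ± 0.088, adjusted p = 0.43). Has2 under lithium averaged 8.995 ± 2.88 in HT and 12.97 ± 3.93 in WT libraries (-0.47 ± 0.21, adjusted p = 0.46). Of the 10 genes, 8 had a negative genotype change under vehicle, where 51.6% of all genes had a positive one, and the median of the 10 was -0.04. Among the 8 the change was -0.16 for Acan, -0.12 for Hapln2, -0.10 for Vcan, -0.07 for Tnr, -0.05 for Bcan, -0.03 for Ncan and Hapln4 and -0.02 for Hapln1, with adjusted p of 0.61 (Tnr) to 0.97 (Hapln1). Has2 had 0.27 (adjusted p = 0.71), with the widest interval of the 10 (-0.15 to 0.70), and this turned to -0.055 without the libraries of high score. The interval was -0.49 to 0.17 for Acan, -0.45 to 0.21 for Hapln2 and -0.08 to 0.02 for Ncan. Under fluoxetine the changes ran from -0.16 (Acan) to 0.13 (Has2), with Hapln2 at -0.15, Has3 and Hapln1 at -0.10, Vcan at -0.08, Bcan at -0.04, Ncan at -0.03, Tnr at 0.02 and Hapln4 at 0.10, all with an adjusted p of 1. Under lithium the other 8 had changes of -0.13 (Hapln4), -0.11 (Hapln1), -0.06 (Hapln2), -0.05 (Ncan), -0.02 (Bcan and Tnr), 0.10 (Vcan) and 0.18 (Acan), with adjusted p of 0.50 to 0.93. The Acan value turned to -0.12 with the marker scores as covariates and to -0.053 without the libraries of high score. In females under lithium the Hapln4 ranges did not overlap, with 1864.6 to 2416.1 in HT and 2442.4 to 2946.6 in WT mice. That change of -0.29 did not pass (adjusted p = 0.40), and the WT females are the same libraries as in the lithium comparison.

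No member passed between males and females (0 of 10, where 0.197% of all genes passed and 0.0394% were higher in males; 1 of 10 was under an unadjusted 0.05, against 6.25% of all genes). The smallest p was that of Ncan, with a male minus female change of -0.03 ± 0.015 (adjusted p = 0.79). The others had changes of -0.11 (Acan), -0.04 (Hapln1), -0.02 (Bcan), -0.0012 (Hapln4), 0.01 (Vcan), 0.05 (Tnr, Has2 and Has3) and 0.12 (Hapln2), with adjusted p of 0.84 to 1. That of Acan turned to 0.032 without the libraries of high score. On simulated data with the size and spread of the lithium comparison in WT mice, genes with a mean value of at least 50 were changed. The test recovered 62% of those changed by 0.25 on the log2 scale, 94% of those changed by 0.5 and 100% of those changed by 1. It also called 8 genes that had not been changed. These shares do not cover Has2, whose mean value was 11.6. They are averages over genes drawn at random, so they do not give the recovery for genes of wide spread. In that comparison the standard error was 0.17 for Acan and Hapln2, against 0.071 for Hapln4.

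Between mice of the same group, the genes were related to partly different cell type markers. Some lists were shared, as the astrocyte list was by Acan, Bcan, Ncan, Vcan and Hapln1. Correlations below are of log2 values after the mean of each of the 12 groups was subtracted, over 56 libraries, which share dissection and depth as sources of variation, and 100 relations with 10 marker lists were tested by permutation within groups. The smallest p that 100000 permutations can give is 1e-05, and 25 relations passed by Pearson r at an adjusted p below 0.05. The 45 correlations between members, given without a test, reached 0.56 for Acan and Vcan and -0.63 for Vcan and Hapln4, and the other 43 lay between -0.52 (Acan and Hapln4) and 0.43 (Bcan and Ncan). The neighbours Ncan and Hapln4 (0.11), Bcan and Hapln2 (0.29) and Vcan and Hapln1 (0.29) were weakly related.

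**Figure D4:**
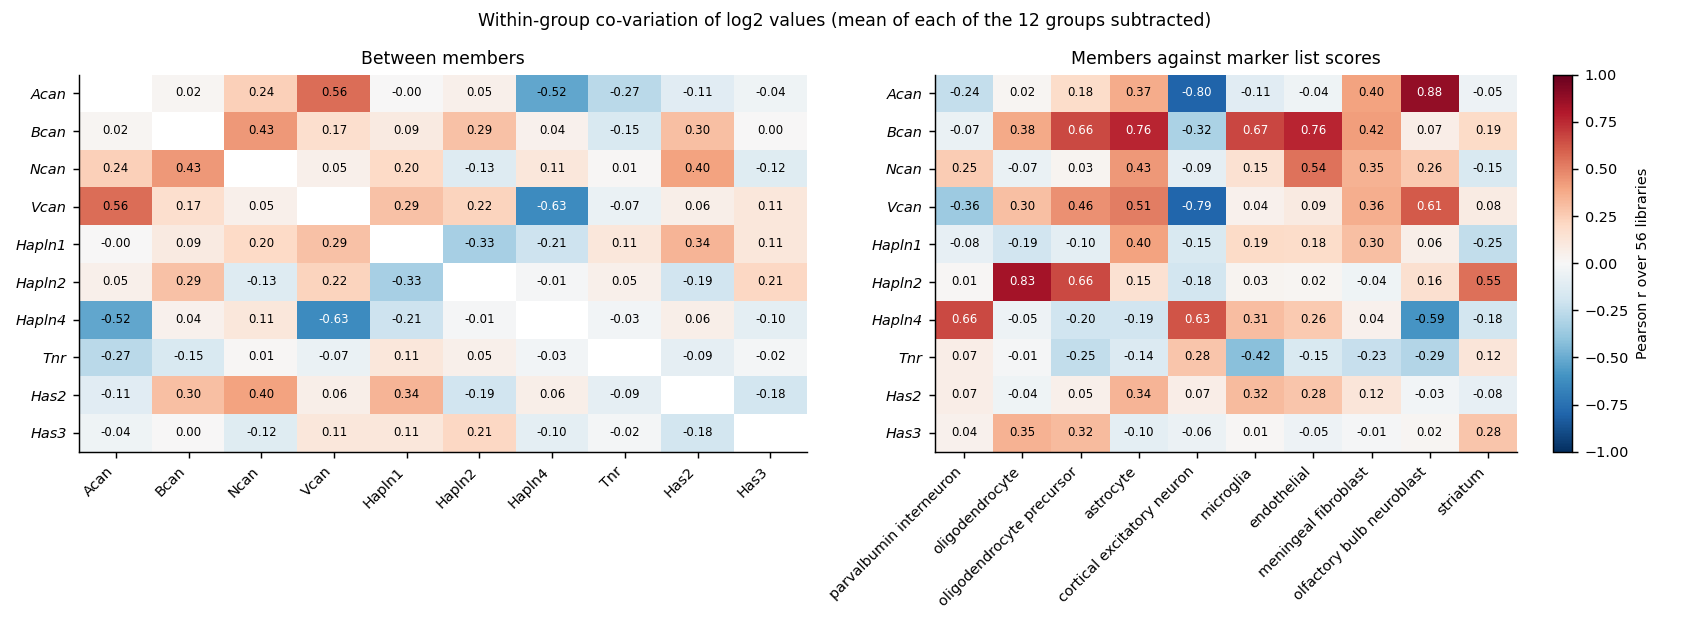
Pearson r of log2 values after subtracting the mean of each of the 12 groups, between members (left) and between members and the 10 marker list scores (right), over 56 libraries. The strongest cells are Acan with olfactory bulb markers (0.88) and Hapln2 with oligodendrocyte markers (0.83), and Has2 and Has3 have none beyond 0.35 among the marker lists.

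Acan followed the olfactory bulb list (r = 0.88, Spearman rho = 0.87, both adjusted p = 0.0001) and ran against cortical excitatory neuron markers (r = -0.80, rho = -0.73, both adjusted p = 0.0001). Without the 2 libraries farthest from the median score r was 0.86, and within the 45 libraries of score at most 1 and the 11 above 1 it was 0.81 and 0.78. Its level was 91.7 to 305.1 (median 144.0) in the 17 libraries with a high olfactory or striatal score and 87.9 to 146.5 (median 111.0) in the other 39. The genes most like it were Inpp5j (r = 0.94), Ptpro (0.94) and Ablim3 (0.93). Acan also passed, less strongly, for meningeal (r = 0.40, rho = 0.37, adjusted p = 0.019 and 0.032) and astrocyte markers (r = 0.37, rho = 0.38, adjusted p = 0.039 and 0.042). It was not detectably related to the parvalbumin interneuron list (r = -0.24, rho = -0.29, adjusted p = 0.15 and 0.12).

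Vcan behaved in part like Acan, with r = -0.79 and rho = -0.77 against excitatory neuron markers (both adjusted p = 0.0001) and r = 0.61 and rho = 0.62 with the olfactory list (both adjusted p = 0.00017). Within libraries of olfactory score at most 1 its r with that list was 0.54, and within the 11 above it was 0.06. Vcan also passed for astrocyte (r = 0.51, rho = 0.46, adjusted p = 0.0038 and 0.012) and oligodendrocyte precursor markers (r = 0.46, rho = 0.48, adjusted p = 0.022 and 0.011). By r alone it passed for meningeal (0.36, adjusted p = 0.026) and parvalbumin interneuron markers (-0.36, adjusted p = 0.042). For the excitatory neuron and olfactory lists, Hapln4 had the opposite sign to both. It went up with parvalbumin interneuron markers (r = 0.66, rho = 0.63, both adjusted p = 0.0001) and excitatory neuron markers (r = 0.63, rho = 0.67; adjusted p = 0.00023 and 0.00017) and ran against the olfactory list (r = -0.59, rho = -0.59; adjusted p = 0.00017 and 0.00062; with -0.45 and -0.19 within the libraries below and above a score of 1). Pvalb, the parvalbumin gene itself, ranked among the 3 genes most like it (0.84), beside Lynx1 (0.89) and Lpcat4 (0.84).

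Bcan and Ncan were related to markers of glia and of vessels, and Hapln2 to markers of glia. Bcan, made by astrocytes and oligodendrocyte precursors, followed astrocyte (r = 0.76, rho = 0.69), endothelial (r = 0.76, rho = 0.72), microglial (r = 0.67, rho = 0.66) and oligodendrocyte precursor markers (r = 0.66, rho = 0.57), all with adjusted p of at most 0.001. Its relation to meningeal markers also passed (r = 0.42, rho = 0.42, adjusted p = 0.031 and 0.032). Plxnb1 (0.82) and Fads1 (0.81) were among the 3 genes most like Bcan. Ncan was related to endothelial (r = 0.54, rho = 0.52; adjusted p = 0.0029 and 0.0019) and astrocyte markers (r = 0.43, rho = 0.40; adjusted p = 0.014 and 0.023), and nearest to Cd93 (0.75), Kdr (0.67) and Ets1 (0.65). Hapln2, the link protein of nodes of Ranvier, followed oligodendrocyte markers (r = 0.83, rho = 0.82, both adjusted p = 0.0001; r = 0.82 without the 2 farthest libraries), and Trf (0.87) and Plxnb3 (0.86), genes of myelinating glia, led its list with Pacs2 (0.85). It also followed oligodendrocyte precursor markers (r = 0.66, rho = 0.62, both adjusted p = 0.0001) and the striatal list (r = 0.55, rho = 0.60). Its r with the striatal list was 0.51 and 0.36 within the 49 libraries below and the 7 above a score of 1.

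Hapln1 was related to astrocyte markers alone among the 10 lists (r = 0.40, rho = 0.42; adjusted p = 0.030 and 0.020), and Luzp2 (0.85) stood nearest to it. Tnr, made by oligodendrocytes and some interneurons, passed only for microglial markers, with a negative sign (r = -0.42, rho = -0.42; adjusted p = 0.018 and 0.023), and was nearest to the large cytoskeletal genes Dst (0.82) and Ank3 (0.80). Has2 passed for none of the 10 lists at this depth. Has3 passed only for the striatal list, and only by rho (r = 0.28, adjusted p = 0.17, rho = 0.39, adjusted p = 0.022). The genes most like Has2 and Has3, Lsm12 (0.64) and Pop4 (0.53), were less close than for any other member. The part of these cell type markers in the drug effects was not tested, beyond the fits with the olfactory and striatal scores given above.

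**Figure D5:**
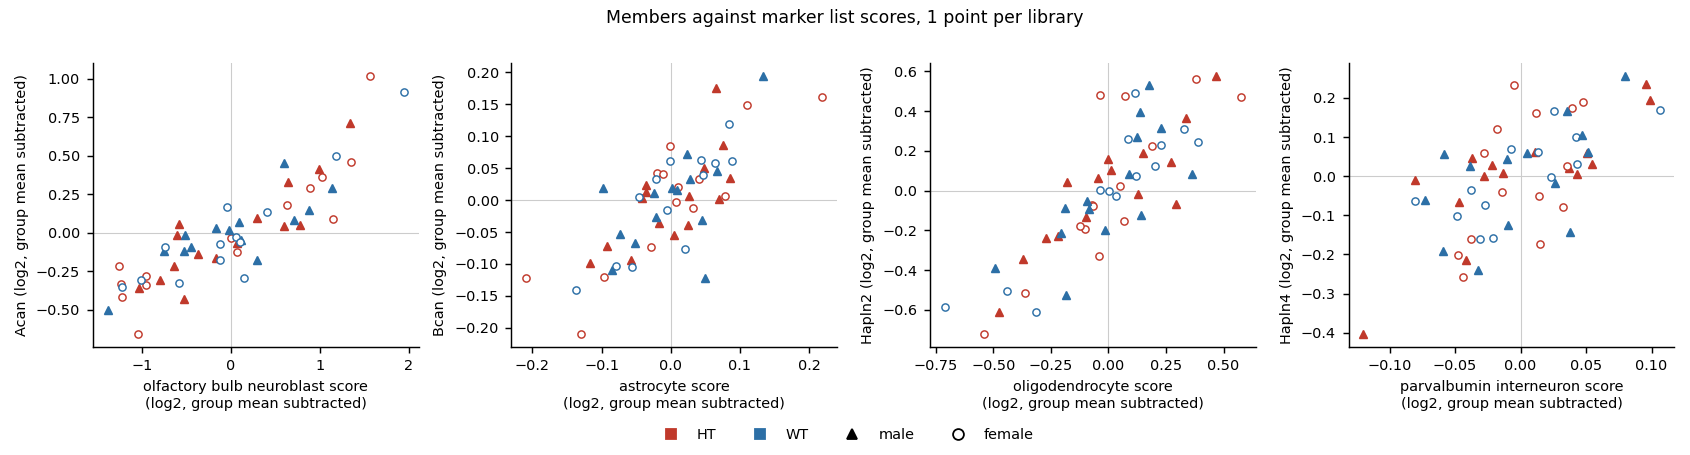
Log2 value of Acan, Bcan, Hapln2 and Hapln4 (y axes) against the score of a marker list (x axes), both with the mean of each of the 12 groups subtracted, 1 point per library; red, HT; blue, WT; triangles, males; circles, females. Both genotypes and both sexes lie along each trend, with r of 0.88, 0.76, 0.83 and 0.66.

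Marker lists were also compared between the groups. Under lithium, 50.7% of all genes had a positive change in WT mice and 49.7% in HT mice. Of all genes, 5.71% passed in WT and 8.77% in HT mice, and a count of 1 in a list of 7 to 9 genes is near the HT share. In lithium against vehicle WT mice, 14 of 14 olfactory markers had a negative change (median -0.52), 11 of 11 striatal markers a positive one (median 0.28), and 7 of 7 meningeal and 8 of 8 microglial markers a negative one, of which 2 meningeal genes fell past the threshold. In lithium against vehicle HT mice, where Has2 passed, 7 of 7 meningeal markers (median -0.14, 1 past the threshold) and 8 of 8 microglial markers (median -0.07, 1 past the threshold) also had a negative change, and 8 of 11 striatal markers did (median -0.05, none past the threshold). The summed olfactory list was 8010 to 15864 in WT lithium and 8350 to 33856 in WT vehicle libraries, and the striatal sum 7028 to 21166 and 6648 to 13000. Among parvalbumin markers in WT mice, Syt2 rose by 0.32 (adjusted p = 0.014) and Cox6a2 by 0.38 (adjusted p = 0.042), 2 of 9, beside the Hapln4 change of 0.22, and the list summed to 25395 to 30101 in lithium and 24533 to 32996 in vehicle libraries. In all, 6 of the 9 had a positive and 3 a negative change in WT mice (median 0.07). In HT mice Kcnc1 rose by 0.11 (adjusted p = 0.0033), 1 of 9, while 4 of the 9 had a positive and 5 a negative change (median -0.02). Of 6 endothelial markers, Cldn5, Kdr and Pecam1 fell and Flt1 rose in HT mice, and Cldn5 and Kdr fell in WT mice. The olfactory list held Eomes and Tbx21 at 0 in at least 1 library, and no marker of the other 9 lists was at 0 in any.

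Genes that supply, modify, bind or cut this matrix were described beside the 10 from lists that cover hyaluronan partners, other proteoglycans, chondroitin sulfate synthesis, proteases with their inhibitors, and chondroitin sulfate receptors. Timp2, an inhibitor of matrix metalloproteinases, rose under lithium in both genotypes, by 0.14 ± 0.028 in HT mice (adjusted p = 0.0012) and by 0.19 ± 0.030 in WT mice (adjusted p = 0.0002), and was the 1 of 16 protease and inhibitor genes to pass in each, where 8.77% of all genes passed in HT and 5.71% in WT mice. A count of 1 of 16 is near those shares. In HT mice 3 of 20 chondroitin sulfate synthesis genes passed under lithium. B3galt6 (-0.26, adjusted p = 0.0059) and B3gat3 (-0.14, adjusted p = 0.037), which build the linker between proteoglycan core and sugar chain, fell, and Chst15, a sulfotransferase, rose (0.11, adjusted p = 0.016). Cspg5 (neuroglycan C), 1 of 8 other proteoglycans and tenascins, fell in HT mice (-0.12, adjusted p = 0.012). In WT mice no gene of these 2 lists passed. None of 10 hyaluronan partners and none of 5 chondroitin sulfate receptors passed in any drug or genotype effect. Their smallest p-values were those of Hmmr, a hyaluronan receptor (0.49 in HT minus WT mice under fluoxetine, adjusted p = 0.94), and Ptprs, the receptor phosphatase that binds chondroitin sulfate (-0.06 in HT minus WT mice under lithium, adjusted p = 0.35). Under lithium in HT mice, 7 of the 10 hyaluronan partners had a negative change (median -0.11), and 4 were under an unadjusted 0.05, against 23.3% of all genes. In WT mice 6 had a negative change (median -0.01), and 1 was under that threshold, against 21.4%.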

How the data were processed

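Libraries were made with a stranded mRNA kit, per the labels' protocols, and Salmon 0.11.2, R 3.6.0, DESeq2 1.19.11 and GRCm38 are named per the submitters' processing notes, without roles. The deposited signal is each gene's read count divided by a library size factor (0.818 to 1.23). Values were whole multiples of 1 step per library at a tolerance of 0.01 reads. In R 4.3.3, limma 3.58.1 (trend, robust) was fitted to log2(value + 1), 12 group means, genes with at least 10 in at least 4 libraries. edgeR had been planned for counts and limma for scaled values, so limma was used. edgeR 4.0.16 and DESeq2 1.42.0 on recovered reads, TMM, voom, no filter, pseudocounts of 0.5 and 5, only the groups compared, a replicate block, marker scores and leaving out libraries were alternatives. Replicates are separate libraries, and nothing names separate litters. The rule for named genes took all 10 members in every comparison (some are given as a range), called genes of the matrix lists (up to 4 a list and comparison, or the smallest p where none was called) and the 3 genes most alike, of which the nearest are given. The members and lists were chosen with earlier results of these data known. The test was run on simulated data first. 1 gene among those most alike is not reported here.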

Additional observations from a re-analysis of the deposited data

Results flagged for a closer look

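Of 120 groups of 4 or 5 libraries, 2 held a library that stood far from the others of its group, where chance flags about 1 in 20. Acan was 234.3 in WT vehicle female 3, against 96.8 to 116.3 in the other 4 of that group. That library also had the highest olfactory marker score of all (2.18), and the part of the markers in its Acan value was not tested. Hapln1 was 1533.2 in HT vehicle female 1, against 1071.1 to 1179.7 in the other 4, and that library had an olfactory score of 1.45.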

How the results depend on the processing

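Across the 11 alternatives and 56 fits that left out 1 library, most of the changes of the 10 genes kept their direction and side of the threshold. A turn of sign was counted only where the change was called or exceeded its standard error, and smaller ones numbered 34 and 132. Without the libraries of high marker score, 4 changes turned: Has2 for fluoxetine in HT mice (0.14) and for HT minus WT under vehicle (-0.055), and Acan for HT minus WT under lithium (-0.053) and for male minus female (0.032). With the scores as covariates Acan for HT minus WT under lithium was -0.12. Under lithium in HT mice, 1 member was called, against 0 with voom, DESeq2 (adjusted p of Has2 not given), only the groups compared, the replicate block and without high-score libraries, 2 with covariates, and 0 to 1 with a library left out. The adjusted p of Has2 was 0.053 with voom and with only the groups compared and 0.056 with the replicate block. In WT mice 1 was called, against 2 with DESeq2, only the groups compared and the replicate block (Hapln4, adjusted p = 0.038), and 1 to 2 with a library left out. Same-numbered libraries did not deviate together (median r = -0.002, -0.237 to 0.429), so the numbers were not taken as pairs, and the block changed no other call of a member. Counts of genes called ran from 586 to 2034 (1560) for lithium in HT mice, 502 to 1152 (1016) in WT mice, 3 to 19 (8) and 0 to 127 (26) for fluoxetine in HT and WT mice, 1 to 31 (1), 1 to 3 (2) and 3 to 16 (6) for genotype under vehicle, fluoxetine and lithium, and 25 to 41 (35) for sex. The causes were not tested. Depth limits Has2 to changes larger than its counting error.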
